A study of Mus musculus with 4 samples.

Results

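The nuclear genes of mitochondrial complex I were followed in hearts of Klf9 KO and WT mice. Every row of the table whose symbol begins with Nduf was taken, which gave 48 of 17485 genes. Of these, 8 carry the name Ndufaf and stand for assembly factors, and the other 40 were counted as subunits by name. The Klf9 KO group held 2 whole-heart libraries of total RNA from mice that lack the transcription factor Klf9, and the WT group held 2 such libraries from wild-type mice. All mice were labelled as male and 8 weeks old. The labels give neither the strain, the knockout allele nor whether a library came from 1 heart or a pool. The study set out to examine how Klf9 affects mitochondrial function in the heart. Since the labels do not say whether both libraries of 1 group are from different mice, each p-value rests on a spread that may be technical.

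Complex I, the NADH dehydrogenase of the inner mitochondrial membrane, takes electrons from NADH, hands them along a chain of iron-sulphur clusters to ubiquinone and pumps protons. Its hydrophilic arm consists of the N module, which oxidises NADH, and the Q module, which reduces ubiquinone, and its membrane arm is divided into a proximal and a distal part that hold the proton pumps. Assembly factors bind building blocks of the complex while it is put together and are absent from the finished enzyme. The working heart draws most of its ATP from oxidative phosphorylation, and its mitochondria are rich in this complex. Subunits encoded by mitochondrial DNA were not analysed here.

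Klf9 itself was at 2.66 and 1.99 in the Klf9 KO libraries, against 74.9 and 58.8 in the WT libraries, a log2 fold change of -4.35 ± 0.20 (SE; limma, Benjamini-Hochberg adjusted p = 3.46e-06). Values are the expression values behind the authors' ratios, in an unstated unit, so levels were compared between libraries and never between genes. Sums over marker genes or a whole library assume that the genes share a unit, and they mostly follow the genes with the highest values. The values of a library summed to 409359 and 418974 in Klf9 KO, against 426032 and 489534 in WT, and read depth is not stated in the labels or headers. One library went against its sex label. Y-linked Kdm5d was at 4.01 and 0.01 in Klf9 KO, against 3.42 and 3.97 in WT, and Ddx3y was at 7.82 and 0.01 in Klf9 KO, against 14.6 and 17.1 in WT. The library labelled Klf9 KO-2 thus held little of the RNA of Y-linked genes that a male heart holds. Groups also differed in genes of the perinatal heart, with 6 of 6 higher in Klf9 KO. Among them was Tnni1, the slow skeletal troponin I of the fetal heart, at 656 and 994 in Klf9 KO, against 0.16 and 0.01 in WT. Both groups carry the same age label, and whether it holds for the Klf9 KO libraries was not tested. Esr1, the oestrogen receptor, was at 0.09 and 0.03 in Klf9 KO, against 3326 and 2726 in WT. The perinatal genes and Esr1 split the libraries by group, as Klf9 does. The parts of stage and of Esr1 in the results on Nduf genes therefore cannot be told apart from that of the genotype. The part of sex was not tested. Summed cardiomyocyte markers (7 of 7 in the table, 1 lower) were 32267 and 30413 in Klf9 KO, against 27550 and 32316 in WT, so the sums overlapped. Their median log2 fold change was -0.47, the same sign as that of the Nduf genes, with both Klf9 KO libraries below both WT libraries in 4 of 7 (Tnnt2, Tnni3, Actc1 and Pln, of which Tnni3 passed) and above them in 2 (Myh6 and Myl2). Summed macrophage markers (7 of 7 in the table, 6 lower) were 70.3 and 69.7 in Klf9 KO, against 237 and 387 in WT. Summed fibroblast markers (3 of 6 higher, 1 lower) were 806 and 885 in Klf9 KO, against 379.6 and 538 in WT, and summed endothelial markers (3 of 6 higher) were 511 and 523 in Klf9 KO, against 377 and 359.9 in WT. Smooth muscle markers (3 of 4 higher) summed to 283 and 392 in Klf9 KO, against 110.4 and 92.4 in WT, epicardial markers (4 of 4 tested higher) to 24.5 and 22.4 in Klf9 KO, against 5.56 and 7.6 in WT, and red cell markers (none of 5 passed) to 18941 and 12511 in Klf9 KO, against 11073 and 10827 in WT. Plin1, Cidec and Ucp1 of fat cells and the fast skeletal myosins Myh1, Myh2 and Myh4 were at 0.05 or lower in every library. Of the other 3 skeletal muscle markers, Acta1 was at 45.2 and 70.9 in Klf9 KO, against 814 and 313 in WT (log2 fold change -3.13 ± 0.41, limma adjusted p = 0.000459), Ckm was at 1608 and 1556 in Klf9 KO, against 1566 and 1457 in WT and did not pass, and Tnnt3 was at 0.84 and 0.31 in Klf9 KO, against 0.57 and 1.09 in WT and was not tested. In whole hearts, fewer cells of a type and less RNA per cell cannot be told apart, and the part of these cell types was not tested.

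Nduf transcripts were lower in the Klf9 KO hearts in many members and higher in none by the test used. Among 47 members tested, 21 passed limma's test over 12135 genes at a Benjamini-Hochberg adjusted p below 0.05, all of them lower, which is 44.7% of the members, against 17.0% of all genes tested that were lower and 27.7% that were higher. The median log2 fold change was -0.65 over the 47 members, against 0.12 over all genes tested. In the 21 lower genes the Klf9 KO mean was 43.4% to 66.5% of the WT mean. Both Klf9 KO libraries lay below both WT libraries in 40 members (85.1%, against 30.2% of all genes tested), and both lay above in 1 (against 45.2% of all genes), while the groups overlapped in 6. No member passed upwards, and at an unadjusted p below 0.05 only Ndufa4l2 was higher. Every tested member was at 9.43 or more in each library, so none entered the test through 1 group alone. The remaining row, Ndufa11b, a copy of the membrane-arm gene Ndufa11, was at 0.01 and 0.26 in Klf9 KO, against 0.01 and 0.1 in WT, and was not tested.

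Scaling by relative log expression moved the median of all genes to -0.01 and the calls over all genes to 2597 lower and 2634 higher, beside 2061 and 3367 without it, and then 33 Nduf genes were lower. Without Klf9 KO-2, the library that goes against its sex label, the members' median log2 fold change was -0.66, against 0.07 over all genes. Without Klf9 KO-1 these medians were -0.63 and 0.10. When either Klf9 KO library was left out, fewer genes passed as lower, and the share of Nduf genes passing was no longer above that of all genes. Without WT-1 the medians were -0.92 and 0.13, and without WT-2 they were -0.37 and 0.16. In each of these fits a group of 1 library was assumed to vary like the other group. Of the 21 lower genes, Ndufaf1 alone passed with each of the 4 libraries left out in turn.

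**Figure D1:**
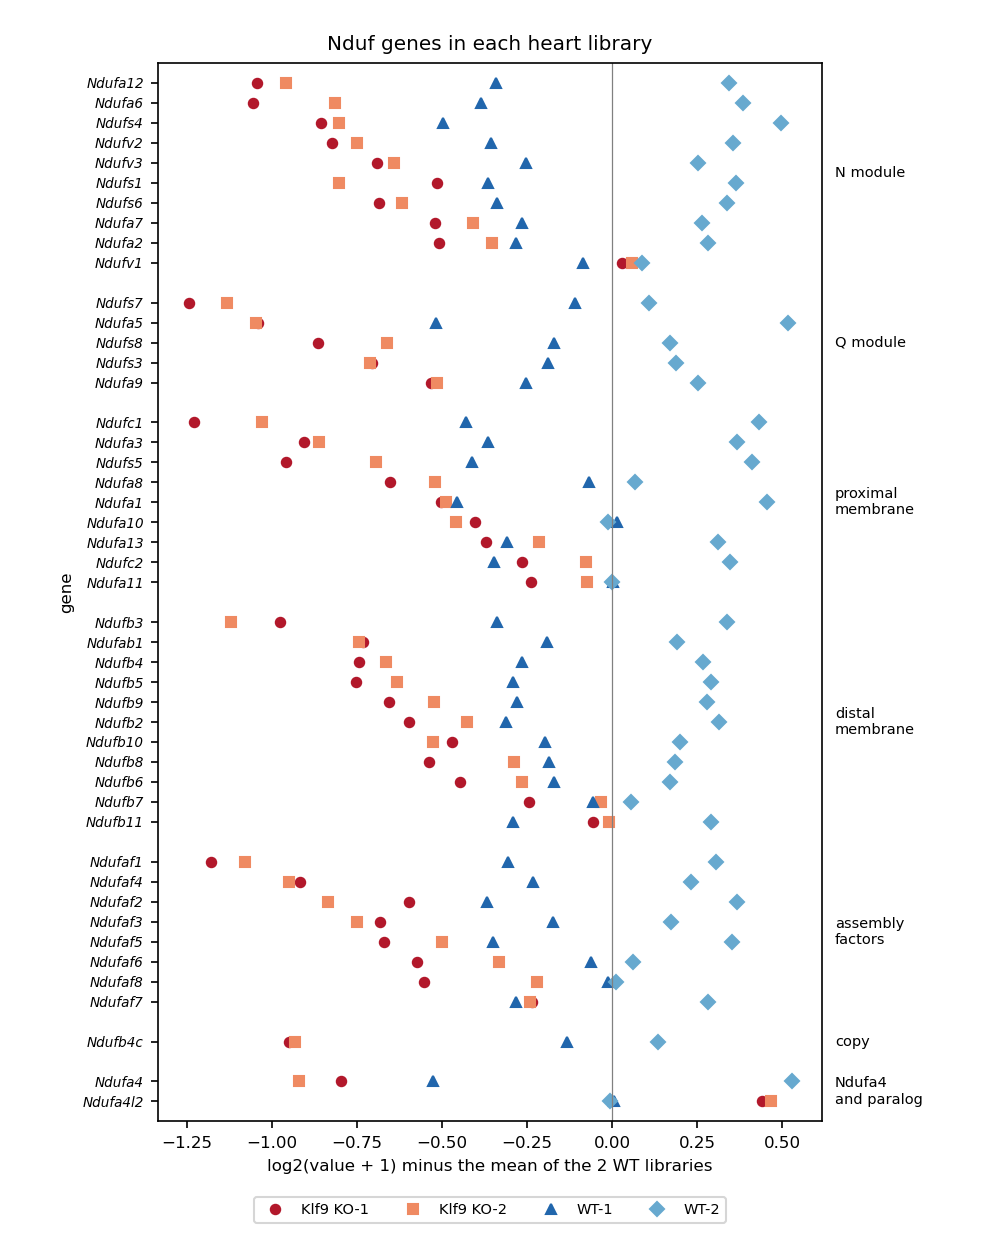
Each row is 1 Nduf gene, grouped by module (46 of the 47 tested members are drawn), and each point is 1 library, placed by its log2(value + 1) minus the mean of both WT libraries, for Klf9 KO-1, Klf9 KO-2, WT-1 and WT-2. In most rows both Klf9 KO points lie left of both WT points, and WT-2 lies right of WT-1.

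The 250 bases before the annotated transcription start are shown for 4 members that span the range of response: Ndufs7 and Ndufaf1, which had the lowest fold changes of the subunits and of the genes named Ndufaf, Ndufb4, which was lower and holds the most matches to the NRF1 motif in its window, and Ndufb11, whose groups overlapped. Sequences are from RefSeq, build GRCm38.p6, written 5′ to 3′ on the gene's strand, and capitals mark matches to the searched motifs on either strand. They lie at chr10:80249199-80249448 (plus strand, Ndufs7), chr2:119662835-119663084 (minus strand, Ndufaf1), chr16:37654369-37654618 (minus strand, Ndufb4) and chrX:20617620-20617869 (minus strand, Ndufb11).
Ndufs7: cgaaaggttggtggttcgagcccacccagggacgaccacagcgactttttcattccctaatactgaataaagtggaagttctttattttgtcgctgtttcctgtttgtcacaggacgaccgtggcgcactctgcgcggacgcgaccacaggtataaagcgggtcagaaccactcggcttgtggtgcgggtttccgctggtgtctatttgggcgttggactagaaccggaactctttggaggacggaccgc
Ndufaf1: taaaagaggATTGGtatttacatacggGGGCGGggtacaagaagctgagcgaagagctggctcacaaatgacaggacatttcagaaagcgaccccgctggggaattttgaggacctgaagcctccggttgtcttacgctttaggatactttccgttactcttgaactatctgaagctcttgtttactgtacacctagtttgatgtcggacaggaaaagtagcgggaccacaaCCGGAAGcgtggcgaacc
Ndufb4: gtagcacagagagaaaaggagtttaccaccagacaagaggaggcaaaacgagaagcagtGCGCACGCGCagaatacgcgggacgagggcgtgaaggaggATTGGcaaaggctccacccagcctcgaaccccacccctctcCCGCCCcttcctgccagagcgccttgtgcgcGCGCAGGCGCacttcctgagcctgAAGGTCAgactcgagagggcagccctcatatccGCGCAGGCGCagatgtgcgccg
Ndufb11: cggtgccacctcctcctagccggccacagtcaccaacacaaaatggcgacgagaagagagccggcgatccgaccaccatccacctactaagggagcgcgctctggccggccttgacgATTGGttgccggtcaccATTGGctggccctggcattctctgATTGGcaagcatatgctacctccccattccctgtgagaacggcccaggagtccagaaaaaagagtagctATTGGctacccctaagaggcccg
In the window of Ndufs7 none of the 7 motifs matched. That of Ndufaf1 holds 1 ETS motif, 1 GC box and 1 CCAAT box, that of Ndufb4 holds 3 NRF1 motifs, 1 ERR motif, 1 GC box and 1 CCAAT box, and that of Ndufb11 holds 4 CCAAT boxes.

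Windows were found for 40 of the 47 tested members, 42 windows in all since 2 genes have a pair of starts. NRF1, a regulator of nuclear genes for respiratory chain proteins, binds GCGCA and GCGC parted by any base (N), and this motif was in 8 of 42 member windows (19.0%), against 7.85% of windows of all tested genes and 3.74% of all 32851 promoter windows. It was in 6 of 20 windows of lower members and in 2 of 22 windows of members that did not pass. Both windows of the lower member Ndufa5 held it, so this gene is counted 2 times among the 6 and among the 8. AAGGTCA, the monomer site of the oestrogen-related receptors (ERR), which drive genes of energy metabolism in the heart, was in 3 member windows (7.1%, against 2.85% of windows of tested genes and 4.08% of all). CCACNCCC, a CACCC box of the kind Klf proteins bind, was in 5 member windows (11.9%, against 20.75% and 15.87%), 1 of a lower member and 4 of members that did not pass. The GC box GGGCGG was in 19 (45.2%, against 57.39% and 32.74%), the ETS motif CCGGAAG in 5 (11.9%, against 13.12% and 6.91%), the CCAAT box CCAAT in 14 (33.3%, against 34.93% and 33.85%) and the YY1 motif AAGATGGCG in 0 (against 1.13% and 0.61%). The motifs were searched independently, so that GC-rich ones can share bases. A match describes the letters of these windows and not a bound site.

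In the Q module, which carries electrons to ubiquinone, 5 of 6 genes were lower, and both Klf9 KO libraries lay below both WT libraries in 6 of 6, with a median log2 fold change of -0.74. Ndufs7, the subunit with the last iron-sulphur cluster before ubiquinone, was at 196 and 212 in the Klf9 KO libraries, against 432 and 503 in the WT libraries. Its groups were far apart beside the gap within each, and the log2 fold change was -1.19 ± 0.21 (SE, n = 2 per group, limma adjusted p = 0.00233). It was -1.13 without Klf9 KO-1, where the gene did not pass, and -1.25 without Klf9 KO-2. Ndufa5, an accessory subunit of the hydrophilic arm, was at 217 and 216 in the Klf9 KO libraries, against 312 and 640.4 in the WT libraries, with a log2 fold change of -1.04 ± 0.32 and adjusted p = 0.0274 by limma. Both Klf9 KO libraries were alike, and the WT libraries differed widely from each other.

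Ndufs8, a carrier of iron-sulphur clusters, was at 119 and 137 in the Klf9 KO libraries, against 193 and 245 in the WT libraries (log2 fold change -0.76, limma adjusted p = 0.0208). Ndufs3, a core subunit of the same module, was at 107 and 107 in the Klf9 KO libraries, against 154 and 200.2 in the WT libraries (log2 fold change -0.71, limma adjusted p = 0.026). In both core genes neither Klf9 KO library reached the lower WT library. Ndufa9, an accessory subunit near the ubiquinone site, was at 221 and 224 in the Klf9 KO libraries, against 269 and 382 in the WT libraries and did not pass (-0.52, limma adjusted p = 0.103).

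In the N module, which receives the electrons of NADH, 4 of 10 genes were lower and the median log2 fold change was -0.66. Ndufa12, an accessory subunit that takes its place late in assembly and is a paralog of the assembly factor Ndufaf2, was at 248 and 263 in the Klf9 KO libraries, against 403 and 649 in the WT libraries (log2 fold change -1.0 ± 0.27, limma adjusted p = 0.0147). Ndufa6, a member of the LYR protein family, was at 131 and 155 in the Klf9 KO libraries, against 209 and 357 in the WT libraries (log2 fold change -0.94, limma adjusted p = 0.0235). Each had both Klf9 KO libraries well below WT-1. Ndufs4, whose loss in mice gives a model of Leigh syndrome, was at 54.6 and 56.7 in the Klf9 KO libraries, against 70.4 and 141 in the WT libraries, so WT-2 was far above the other 3 libraries. Its log2 fold change was -0.83 ± 0.30 with limma adjusted p = 0.0495, just inside the threshold, and -0.33 without WT-2 (adjusted p = 0.0651). Ndufv2, an iron-sulphur subunit beside the NADH site, was at 185 and 194 in the Klf9 KO libraries, against 256 and 419.5 in the WT libraries (log2 fold change -0.79, limma adjusted p = 0.0386).

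Ndufv1, the subunit that holds the flavin and oxidises NADH, was the member of the N module nearest to no change, at 156 and 159.7 in the Klf9 KO libraries, against 144 and 163 in the WT libraries. Its log2 fold change was 0.04 ± 0.20 (limma adjusted p = 0.881), and -0.10 after scaling by relative log expression, -0.01 after upper quartile scaling and -0.04 without WT-1, so it has no settled direction. The values of Klf9 KO and WT overlapped. The other 5 genes of the module that did not pass had log2 fold changes of -0.67 (Ndufv3) to -0.43 (Ndufa2), each with both Klf9 KO libraries below both WT libraries. Ndufv3, a small accessory subunit at 302 and 313 in the Klf9 KO libraries, against 409.8 and 583 in the WT libraries, was just outside the threshold (limma adjusted p = 0.0503), and the core iron-sulphur subunit Ndufs1 was at 148 and 121 in the Klf9 KO libraries, against 164 and 273 in the WT libraries (limma adjusted p = 0.0784).

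In the proximal membrane arm 4 of 9 genes were lower, with a median log2 fold change of -0.50. Ndufc1, a small membrane subunit, was at 119.9 and 138 in the Klf9 KO libraries, against 209 and 381 in the WT libraries. Its log2 fold change was -1.13 ± 0.29 (limma adjusted p = 0.0127). It was -1.03 without Klf9 KO-1, where the gene did not pass, and -1.23 without Klf9 KO-2. Ndufa3, another small membrane subunit, was at 462 and 476 in the Klf9 KO libraries, against 671 and 1116 in the WT libraries (log2 fold change -0.88, limma adjusted p = 0.0301). Ndufs5, which faces the intermembrane space, was at 175 and 211 in the Klf9 KO libraries, against 257 and 455 in the WT libraries (log2 fold change -0.83, limma adjusted p = 0.0447), and without WT-2 it was -0.41 with adjusted p = 0.0513. In all 3 genes WT-2 was the highest library and WT-1 lay between it and the Klf9 KO libraries. Ndufa8, which also faces the intermembrane space, was at 260.4 and 285 in the Klf9 KO libraries, against 391 and 429.6 in the WT libraries, with the WT libraries close together (log2 fold change -0.59 ± 0.21, limma adjusted p = 0.0498).

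The 5 proximal genes that did not pass ran from -0.50 (Ndufa1, X-linked) to -0.16 (Ndufa11), and Ndufa11 was nearest to no change at 71.3 and 80.1 in the Klf9 KO libraries, against 84.3 and 84.2 in the WT libraries. Ndufa10 was at 447 and 429.8 in the Klf9 KO libraries, against 597 and 586 in the WT libraries: here the WT libraries were alike and both Klf9 KO libraries lay below them, with a log2 fold change of -0.43 ± 0.21 that did not pass (limma adjusted p = 0.133). Ndufa13, a subunit also studied for a role in cell death, had a log2 fold change of -0.29 and Ndufc2 one of -0.17, both with overlapping groups, and both turned positive without WT-2 (0.02 and 0.18).

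In the distal membrane arm 3 of 11 genes were lower, with a median log2 fold change of -0.51. Ndufb3, a small subunit of that arm, was at 67.8 and 61.2 in the Klf9 KO libraries, against 106 and 170.2 in the WT libraries, with a log2 fold change of -1.05 ± 0.25 (limma adjusted p = 0.0092, and 0.079 without Klf9 KO-2). Ndufab1, the mitochondrial acyl carrier protein, which also serves fatty acid synthesis, was at 395 and 392 in the Klf9 KO libraries, against 576 and 751 in the WT libraries (log2 fold change -0.74, limma adjusted p = 0.0298). In both genes the Klf9 KO libraries were lower than either WT library. Ndufb4 was at 293 and 309.97 in the Klf9 KO libraries, against 409 and 591 in the WT libraries (log2 fold change -0.70, limma adjusted p = 0.0438), and the near copy Ndufb4c was at 40.8 and 41.3 in the Klf9 KO libraries, against 72.6 and 87.6 in the WT libraries (log2 fold change -0.94 ± 0.19, limma adjusted p = 0.00408). No label or header states how reads were divided between this gene and its copy, so their values are uncertain as separate genes.

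The 8 distal genes that did not pass ran from -0.69 (Ndufb5, limma adjusted p = 0.05001, just outside the threshold) to -0.03 (Ndufb11). Ndufb11, an X-linked subunit of the membrane arm, was at 369 and 381 in the Klf9 KO libraries, against 313 and 469 in the WT libraries, so both Klf9 KO libraries lay between the WT libraries. Its log2 fold change was 0.26 without WT-2. Ndufb7 was at 321 and 372 in the Klf9 KO libraries, against 366 and 395 in the WT libraries and also overlapped (log2 fold change -0.14). In the other 6 both Klf9 KO libraries were below both WT libraries.

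**Figure D2:**
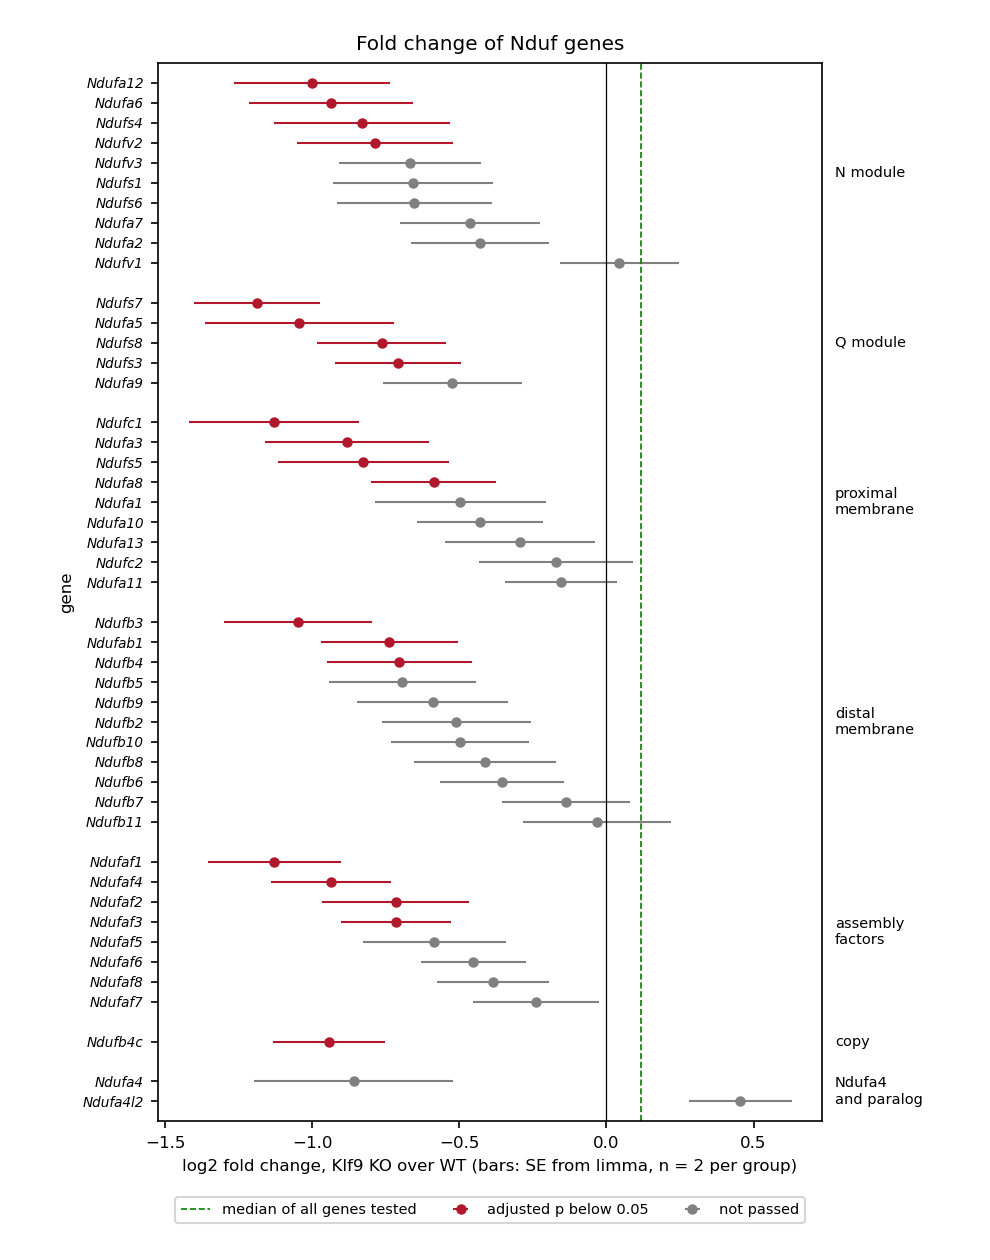
Points are limma log2 fold changes (Klf9 KO over WT) of log2(value + 1) for 46 of the 47 tested members, bars are SE with n = 2 libraries per group, red marks an adjusted p below 0.05, and the dashed line is the median of all genes tested (0.12). The red genes lie between -1.19 (Ndufs7) and -0.59 (Ndufa8), and Ndufa4l2 lies apart at 0.45.

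Over the 36 subunits placed in these 4 modules, 16 were lower and the median log2 fold change was -0.64. Of the 7 core subunits encoded in the nucleus, the ones with a bacterial counterpart, 5 were lower (median -0.71), and of the 29 accessory subunits 11 were lower (median -0.59). The modules differed in their counts, and no test of a difference between modules was made. A pair of genes carries the Nduf name but does not belong to these modules. Ndufa4, now counted as a subunit of complex IV, was at 829.7 and 761 in the Klf9 KO libraries, against 999.6 and 2078 in the WT libraries (log2 fold change -0.86 ± 0.34, limma adjusted p = 0.0663). WT-2 was far above the other libraries, and the gene did not pass. Ndufa4l2, its paralog, known to be induced in hypoxia, was at 40.8 and 41.5 in the Klf9 KO libraries, against 29.9 and 29.6 in the WT libraries, with both Klf9 KO libraries above both WT libraries and a log2 fold change of 0.45 ± 0.17 (limma adjusted p = 0.062). The log2 fold change of Ndufa4l2 was 0.46 without WT-1 and 0.45 without WT-2, where it counted as higher. It was 0.47 without Klf9 KO-1 and 0.44 without Klf9 KO-2, where the gene did not pass. After scaling by relative log expression it was 0.31 (limma adjusted p = 0.173).

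Among the assembly factors named Ndufaf, 4 of 8 were lower, all 8 fold changes were below 0 and the median was -0.65. Ndufaf1, which in human cells works in the complex that builds the membrane arm, was at 17.2 and 18.5 in the Klf9 KO libraries, against 32.3 and 50.0 in the WT libraries. Its log2 fold change was -1.13 ± 0.23 (limma adjusted p = 0.00407), and its adjusted p was 0.0118 without Klf9 KO-2, 0.0204 without Klf9 KO-1, 4.78e-07 without WT-1 and 0.000174 without WT-2. The Klf9 KO libraries were close together, and WT-1 was nearer to them than WT-2. Ndufaf4, in human cells a partner of Ndufaf3 on the growing Q module, was at 14.2 and 13.8 in the Klf9 KO libraries, against 23.4 and 32.6 in the WT libraries (log2 fold change -0.93 ± 0.20, limma adjusted p = 0.006). Ndufaf3 was at 10.8 and 10.3 in the Klf9 KO libraries, against 15.8 and 20.4 in the WT libraries (log2 fold change -0.72, limma adjusted p = 0.014). Both partners were lower in each Klf9 KO library than in either WT library.

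Ndufaf2, which helps to attach the N module, was at 13.4 and 11.2 in the Klf9 KO libraries, against 15.9 and 27.2 in the WT libraries (log2 fold change -0.72, limma adjusted p = 0.044), and was at -0.35 without WT-2 (adjusted p = 0.0681). The 4 factors that did not pass were Ndufaf5, Ndufaf6, Ndufaf8 and Ndufaf7. Ndufaf5, which in human cells hydroxylates Ndufs7, was at 14.2 and 16.1 in the Klf9 KO libraries, against 18 and 29.9 in the WT libraries (log2 fold change -0.59, limma adjusted p = 0.0784). Ndufaf8, its partner in human cells, was at 20.8 and 26.3 in the Klf9 KO libraries, against 30.6 and 31.2 in the WT libraries (log2 fold change -0.39, limma adjusted p = 0.129). In both, the Klf9 KO libraries stayed below the WT libraries. Ndufaf6, which in human cells acts early on the membrane arm, was at 9.43 and 11.3 in the Klf9 KO libraries, against 13.9 and 15.2 in the WT libraries (log2 fold change -0.45, limma adjusted p = 0.0671). Ndufaf7, a methyltransferase, was at 13.3 and 13.2 in the Klf9 KO libraries, against 12.9 and 19.5 in the WT libraries, and its groups overlapped (log2 fold change -0.24, and 0.04 without WT-2).

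Of 14 assembly factors of complex I with other names, 8 were lower (57.1%, against 17.0% of all genes tested), none was higher and 6 did not pass, with a median log2 fold change of -0.57. Their median was -0.573 without Klf9 KO-2, -0.575 without Klf9 KO-1, -0.70 without WT-1 and -0.39 without WT-2. Over all genes the medians of these fits were 0.07, 0.10, 0.13 and 0.16. Fewer of the 14 passed when either Klf9 KO library was left out. The lower ones were Nubpl (-1.14), which delivers iron-sulphur clusters to complex I, the membrane proteins Tmem126a (-1.08), Tmem70 (-1.03), Tmem126b (-0.91), Timmdc1 (-0.68) and Tmem186 (-0.55), as well as Pyurf (-0.79) and Aifm1 (-0.60), all as log2 fold changes. Nubpl was at 4.39 and 3.67 in the Klf9 KO libraries, against 8.99 and 11.3 in the WT libraries (limma adjusted p = 0.00127). The Klf9 KO libraries were again both below WT-1. Acad9 and Ecsit, partners of Ndufaf1 and Tmem126b in building the membrane arm, were not lower by the test, at log2 fold changes of 0.30 and -0.33.

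The other complexes of oxidative phosphorylation gave 1 lower of 4 genes for complex II (median log2 fold change -0.37), 3 of 9 for complex III (-0.29), 3 of 12 for complex IV (-0.34) and 0 of 15 for complex V (-0.42), beside 16 of 36 for the subunits of complex I (-0.64). Complexes II to V together had 7 of 40 genes lower, or 17.5%, close to the 17.0% of all genes tested, while the subunits of complex I had 44.4%. The fold changes of complexes II to V still leaned down, with 34 of 40 below 0 and a median of -0.35, against 0.12 over all genes. Both Klf9 KO libraries lay below both WT libraries in 25 of these 40 genes and above them in 3. Over all genes tested the shares were 30.2% below and 45.2% above, and 31 of the 36 subunits of complex I lay below. None of the genes of complexes II to V was higher by limma. Without WT-1 the median log2 fold changes of complexes II, III, IV and V were -0.52, -0.58, -0.72 and -0.47. The median was then -0.91 for the subunits of complex I and 0.13 over all genes. Without WT-2 the medians of complexes II to V were, in the same order, -0.23, -0.13, -0.05 and -0.06, beside -0.37 and 0.16. Without Klf9 KO-2 they were -0.36, -0.38, -0.36 and -0.43, beside -0.655 and 0.07. Without Klf9 KO-1 they were -0.385, -0.25, -0.32 and -0.35, beside -0.63 and 0.10. The counts of lower genes changed with the library left out. The difference between the complexes was not tested.

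The distance between the WT libraries was a large part of the spread in the Nduf genes. WT-2 was above WT-1 in 44 of 47 members, by a median of 0.56 on the log2 scale and by -0.03 (Ndufa10) to 1.06 (Ndufa4), while over all genes tested the median was 0.03. Between the Klf9 KO libraries the median of Klf9 KO-2 minus Klf9 KO-1 was 0.07, with a range of -0.29 to 0.33, and the Klf9 KO libraries were closer to each other than the WT libraries in 41 members. The median log2(value + 1) of the members was 7.30 and 7.49 in the Klf9 KO libraries, against 7.71 and 8.48 in the WT libraries. In the authors' deposited table the log2 ratio of each pair of libraries shows the same split. Its median over the 47 tested members was -0.42 for Klf9 KO-1 over WT-1 and -0.34 for Klf9 KO-2 over WT-1, with 42 and 40 members below 0 in the authors' deposited table. Against WT-2 the authors' deposited table had medians of -0.93 for Klf9 KO-1 and -0.90 for Klf9 KO-2, each with 46 members below 0. All 4 deposited ratios were below 0 in 40 members and at -0.5 or lower in 11, and these pairs share libraries.

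**Figure D3:**
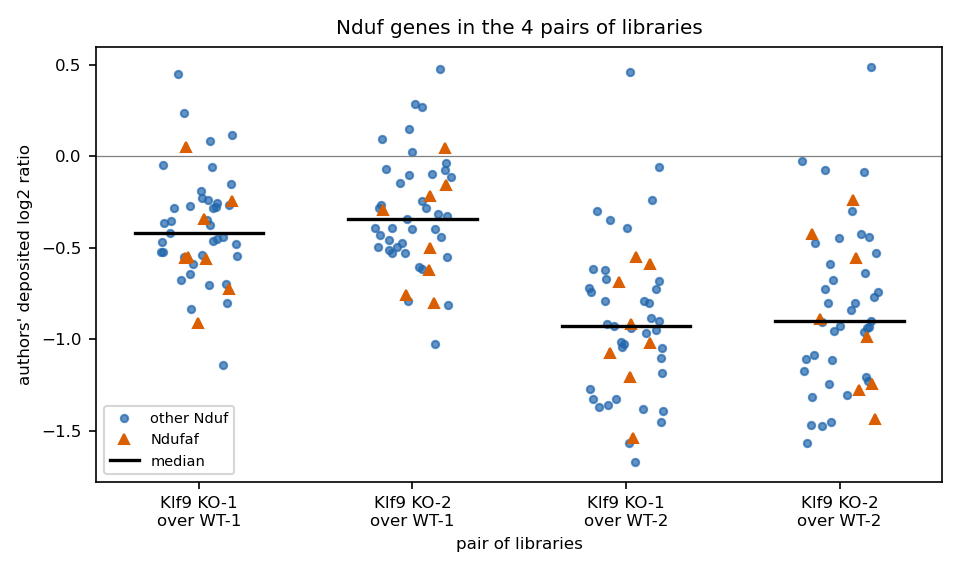
Each point is the authors' deposited log2 ratio of 1 Nduf gene in 1 pair of libraries (Klf9 KO over WT), triangles are Ndufaf genes and bars are medians; points are spread sideways at random. The medians are -0.42 and -0.34 against WT-1 and -0.93 and -0.90 against WT-2.

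For the groups, the authors' deposited table gives a DEGseq q-value, and by q below 0.05 it has 44 of 48 Nduf genes as lower, against 28.7% of 16254 genes, and 2 as higher (Ndufv1 and Ndufa4l2), against 41.3%. Ndufb11 and Ndufa11b did not pass in the authors' deposited table. A log2 ratio of -1 or lower was deposited for 5 members, namely -1.18 for Ndufs7, -1.14 for Ndufaf1, -1.13 for Ndufc1, -1.07 for Ndufa5 and -1.05 for Ndufb3 in the authors' deposited table. No header states how the replicates entered that model.

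Nduf transcripts were short by the annotation used. The length of a gene was the median over its protein-coding transcripts (GENCODE M21), which need not be that of the transcript used in the heart. Single genes can therefore stand in the wrong length range. Over 46 members with a length it ran from 382 to 2413 bases, with a median of 797.5 bases. The median over all genes tested was 2179 bases, and 44 of the 46 members were at most 1500 bases. Over all genes tested, the gap between the WT libraries moved with length: the median of WT-2 minus WT-1 was 0.21 in genes of up to 600 bases, 0.19 up to 1000, 0.14 up to 1500, 0.06 up to 2500, -0.03 up to 4000 and -0.17 above that. Members of the same length lay higher, with medians of 0.71, 0.52, 0.44 and 0.55 in the first 4 ranges, which hold 14, 20, 10 and 2 members. The median log2 fold change of Klf9 KO over WT was 0.03, 0.01, 0.02 and 0.08 over all genes in these 4 ranges, and -0.57, -0.70, -0.49 and -0.72 over the members. Across the 46 members Spearman's rho of length with the WT gap was -0.33 and with the fold change 0.04, given as descriptions of genes that share the same libraries.

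**Figure D4:**
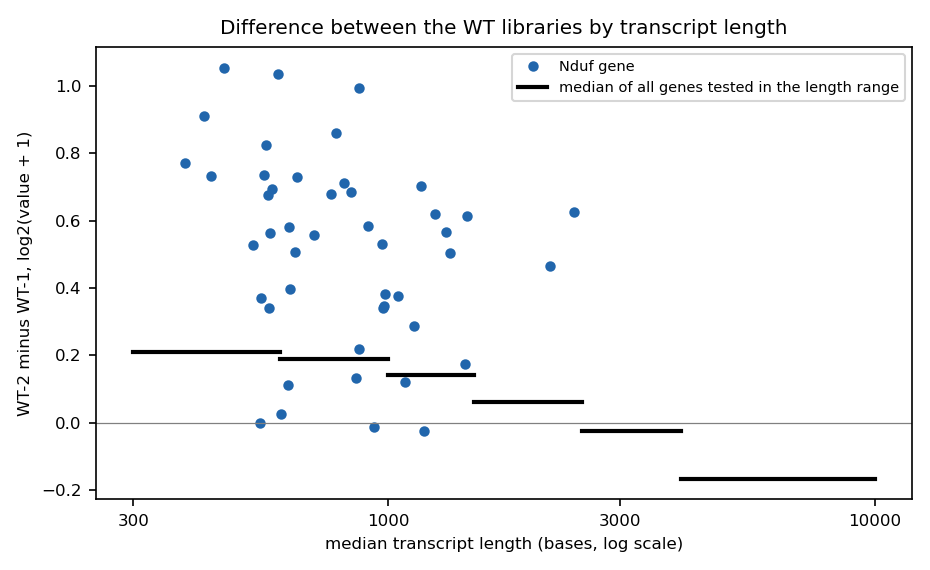
Each point is 1 Nduf gene, placed by its median transcript length (bases, log scale) and by WT-2 minus WT-1 on the log2(value + 1) scale, and bars are medians of all genes tested in each length range, with the outermost ranges cut short. Most points lie above the bar of their range, where the medians of all genes run from 0.21 at the shortest to -0.17 at the longest.

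Ratios between members of the same library do not depend on a scaling of that library. In the hydrophilic arm, the proximal and the distal membrane arm and the Ndufaf genes, the gene with the lowest fold change was set over one whose groups overlapped, so these pairs were chosen after their values were seen and get no test. The ratio of Ndufs7 to Ndufv1, as a percent of its WT mean, was 41.2% and 43.7% in the Klf9 KO libraries, against 98.4% and 102% in the WT libraries. For Ndufc1 over Ndufc2 it was 50.9% and 51.4% in Klf9 KO, against 94.2% and 106% in WT. For Ndufb3 over Ndufb11 it was 52.5% and 45.8% in Klf9 KO, against 96.6% and 103% in WT, and for Ndufaf1 over Ndufaf7 it was 51.0% and 55.1% in Klf9 KO, against 99.1% and 101% in WT. Within each pair the WT libraries nearly coincided, although WT-2 was above WT-1 in each of the 8 genes taken alone, and both Klf9 KO libraries were lower. That near coincidence also depends on the pairs chosen. WT-2 minus WT-1 (log2) was 0.68 for Ndufb3 and 0.58 for Ndufb11, but 0.11 for Ndufb7, whose groups overlapped as well. Set against the median member of their own library, 9 members had both Klf9 KO libraries below both WT libraries and 15 had both above. Centring on the members' own median places some members on each side by construction. No matching share over all genes is given, so these counts do not show a relative change of single members.

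**Figure D5:**
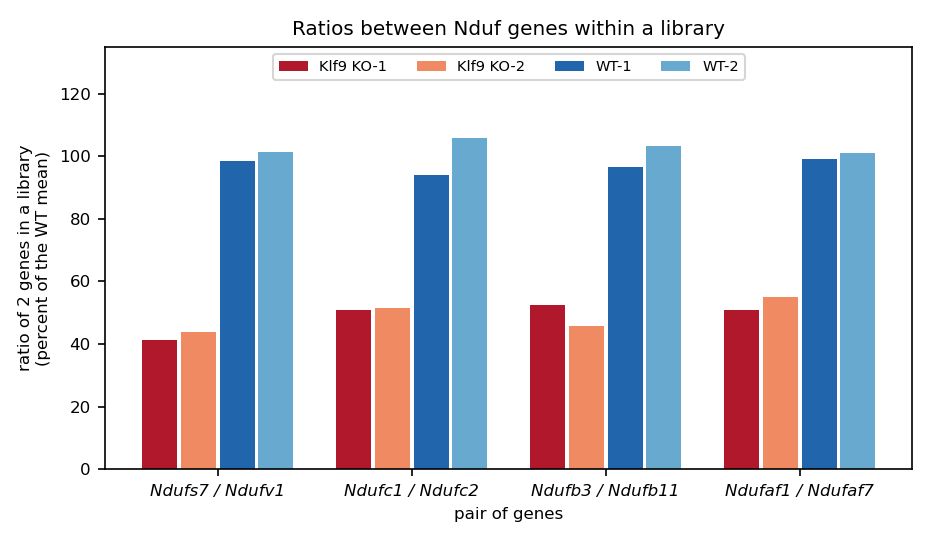
Bars give the ratio of 2 Nduf genes within each library as a percent of the mean of that ratio in the 2 WT libraries, for Klf9 KO-1, Klf9 KO-2, WT-1 and WT-2. The Klf9 KO bars lie between 41.2% and 55.1%, the WT bars between 94.2% and 106%, and the pairs were chosen for their difference.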

How the data were processed

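The authors deposited 1 table of 17485 genes that, per the file headers, gives log2 ratios of Klf9 KO over WT and Poisson p-values with false discovery rates for each of 4 pairs of libraries, and a group log2 ratio with a p-value and q-value from DEGseq. The authors' Poisson false discovery rate for 1 pair exceeds 1 in places, per the file headers and values, so it counts as a score, and it was not used. Aligner, build, strand and depth: not given in the sources used here. Each gene's 4 values were recovered by continued fractions (Python 3, numpy; step 0.01, an assumption). Where all 4 ratios were present (16152 genes), they departed from additivity by at most 9.9e-14; where one was missing (1333 genes), that pair was set to the smallest step. A common factor of a gene's 4 values cannot be recovered. Of 2000 control genes 100% resolved as deposited and 0% after a shift of 1e-06.

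The planned test for counts could not be used. Genes that reached a value of 1 in 2 or more libraries (12135) were fitted as log2(value + 1) by limma 3.58.1 in R 4.3.3 (trend and robust empirical Bayes, group as the only term) and adjusted by Benjamini-Hochberg over all of them, with adjusted p below 0.05 as the threshold; fold changes on this scale are slightly too small for low genes. The procedures were tested on simulated data. For the fit, the simulated noise was independent and of the same size in every gene and library. A gap between the WT libraries shared by many genes, as in the Nduf genes, was therefore not covered. Precision is limited by 2 libraries per group. Every Nduf gene entered the counts and medians, and 1 gene is not reported here by itself; the others past the threshold, each Ndufaf gene, Ndufa4 and Ndufa4l2, and the ends of each module were named. Members, gene lists and tests were chosen with earlier results of these data known. Alternatives were other scalings, a pseudocount of 0.1, no filter, no robust setting, a replicate block and leaving out each library. Motifs were searched on both strands of RefSeq windows of 250 bases before the start.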

Additional observations from a re-analysis of the deposited data

How the results depend on the processing

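The 21 lower Nduf genes became 33 after scaling by relative log expression and 8 with no filter on low values (where more genes were tested), and 3 to 42 with 1 library left out, while upper quartile scaling gave 29, a pseudocount of 0.1 gave 20 and no robust setting 23. The count of higher Nduf genes, 0 in the test as reported, ran from 0 to 1 with 1 library left out, the 1 being Ndufa4l2. For the Ndufaf genes, 4 lower became 7 after scaling by relative log expression and 1 to 8 with 1 library left out. The median log2 fold change ran from -0.921 to -0.334 for the subunits and from -0.913 to -0.383 for the Ndufaf genes with 1 library left out, and stayed below 0 in each such fit. Over all genes tested, leaving out 1 library gave 1033 to 2982 lower and 1274 to 4340 higher genes. Single genes whose log2 fold change turned with 1 library left out were Ndufa13 (-0.603 without WT-1 to 0.017 without WT-2), Ndufaf7 (-0.522 to 0.043), Ndufb11 (-0.324 to 0.26) and Ndufc2 (-0.518 to 0.176), in the same order of libraries, and Ndufv1 (-0.043 to 0.13), which also turned after scaling by relative log expression (-0.104) and after upper quartile scaling (-0.013). The cause was not tested. With the replicate number as a block, 28 Nduf genes and 5 Ndufaf genes were lower. Same-numbered libraries did not deviate together (correlation -0.035 over 12135 genes), so the numbers were not taken as pairs. Precision is limited by 2 libraries per group, and the read depth and the unit of the values are unknown.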
